A study of Mus musculus with 23 samples.

Results

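The small intestine of mice given A10-FMT was compared with that of mice given saline (Sa) in the first of the study's 2 sets of libraries, with RNA-seq as the readout. The comparison holds 5 of the 23 libraries of the study, chosen by their labels: 3 A10-FMT libraries and 2 Sa libraries of set 1. Each library is taken as 1 mouse and called a mouse below, although the labels do not state this. All of these mice were male ICR mice that had received 1 injection of busulfan, an alkylating drug that damages dividing cells, at 40 mg/kg and 3 weeks of age, so no mouse without busulfan was among them. From the following day the Sa mice were given saline by mouth and the A10-FMT mice were given, daily for 1 week, a suspension of small intestinal contents from donor mice that had been dosed with alginate oligosaccharides (AOS), short sugar chains cut from a seaweed polymer, at 10 mg/kg for 3 weeks. The contents of a donor group were pooled, so the recipients shared 1 inoculum. Tissue was taken at 5 weeks of age. This schedule is that of the study's methods, and it was taken to apply to set 1, although the sample records do not say which set followed it. The other recipients of set 1, used below for comparison, were 3 mice given contents of donors without AOS (Con-FMT) and 3 given contents of donors dosed at 100 mg/kg (A100-FMT), after the same busulfan injection.

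The labels of Sa mouse 3 disagree with each other. Its title points to one column of the deposited table and its description to another. The labels do not say which column is this mouse, or whether the other is a further Sa mouse. Every comparison with Sa was therefore made with each column in turn, never with both in the same fit. Below, the title's column always comes first and the description's column second. A gene is said to have risen or fallen when it passed the test with both columns and in the same direction. Values are FPKM, which are fragments scaled to the length of the transcript and the size of the library. Those of a gene are given for Sa mouse 1, then for Sa mouse 3 by its title's or its description's column, and then for A10-FMT mice 1, 2 and 3. Changes are differences of log2(FPKM + 1) with their SE. P-values are from limma with Benjamini-Hochberg adjustment at a threshold of 0.05, with the spread pooled over all 23 libraries. Both fits share 4 of the 5 compared libraries and nearly all of the spread, so passing both is not a second, independent observation. P-values measure the spread within the groups of both sets, to which the 5 compared libraries give only a part. For 1 gene taken alone, an exact permutation test of 2 against 3 mice could not give p below 0.1.

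The lining of the small intestine is renewed from stem cells in the crypts. Their daughters divide a few more times, stop, and move up the villus as absorptive enterocytes, whose upper surface is folded into a brush border of microvilli that carries the last enzymes of digestion and the transporters for sugars, peptides, fats and minerals. The same epithelium senses microbes and viruses, and interferons switch on a large, well known group of antiviral genes in it. Busulfan strikes the dividing crypt cells, and the villus is refilled as they recover.

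Depth could not be read directly, since the table holds FPKM and no read numbers. The values of a library summed to between 556466 and 667957 over all libraries, and from the steps between low values 1 FPKM on a transcript of 1 kb stood for roughly 18.1 to 26.2 reads in the columns compared here, so a gene near 1 FPKM rested on few reads. Across genes, the title's column of Sa mouse 3 followed the GC content of the transcripts (rho = 0.69 across genes, which are not independent replicates), whereas the description's column did not (rho = -0.087). In the same way the log2 changes followed GC with rho = -0.49 when the title's column was used and 0.13 when the description's was. The tissue carried the markers of small intestinal epithelium. Epcam, an adhesion molecule of epithelial cells, read 940.2 and 857 or 925 FPKM in Sa and 961, 944 and 963 after A10-FMT, and Vil1 (villin) read 660.3 and 657 or 575 FPKM in Sa and 854, 798 and 914 after A10-FMT. Marker sums of macrophages and dendritic cells, of stroma and endothelium and of enteric neurons and glia were all at 5.06 FPKM or less in each of these libraries.

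With the title's column 1541 of 11337 genes tested (13.6%) were higher after A10-FMT and 2086 (18.4%) lower. With the description's column 1200 of 11345 (10.6%) were higher and 2629 (23.2%) lower. Of the 11330 genes tested both ways, 808 (7.13%) rose and 1266 (11.2%) fell, and 0 were called in opposite directions. Among those that rose, 795 had all 3 A10-FMT libraries above Sa mouse 1 and above both columns of Sa mouse 3, an arrangement found for 11.6% of all genes, and among those that fell 1248 were below all of them, as were 20.3% of all genes. The calls came from the same libraries, so this arrangement was favored in advance and adds no separate support. The increases were larger than the decreases: the median log2 change was 0.57 and 0.49 among genes that rose and -0.39 and -0.31 among genes that fell, and 57 genes rose but only 4 fell at least 2-fold in both fits. Genes that fell had a median GC content of 52.5%, genes that rose 49.3%, and all genes 49.7%.

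**Figure D1:**
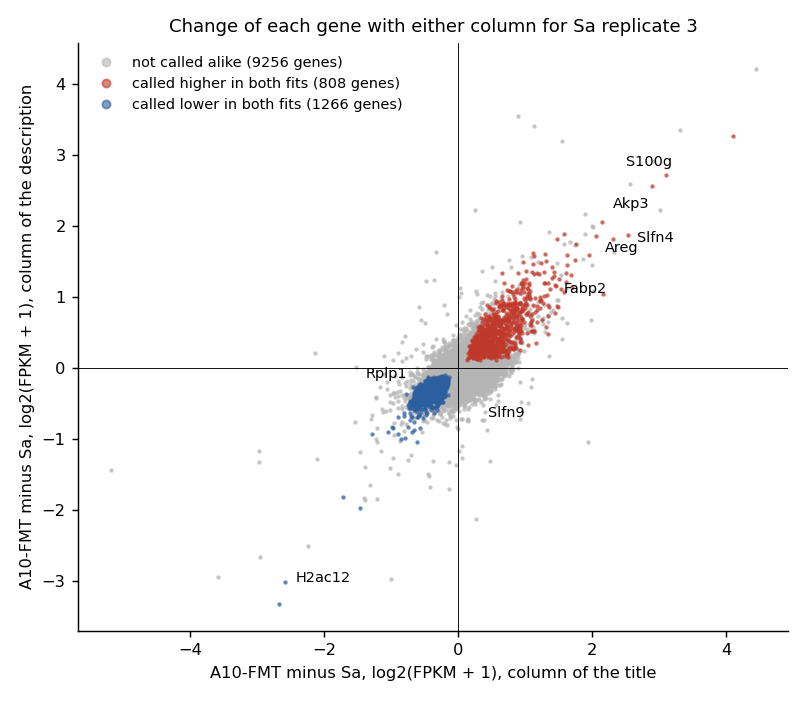
Log2 change between A10-FMT and Sa of set 1 for each gene tested, with the title's column of Sa mouse 3 (x axis) against the description's column (y axis). Colored points are the 808 genes that rose and the 1266 that fell; because both axes share 4 of 5 libraries, the spread along the diagonal is not a replication.

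These counts rest on the spread pooled over all groups and on Sa mouse 3. With array quality weights, which give each library its own weight, no gene passed in both fits and none with the title's column (limma, against 705 and 939 at an unadjusted p under 0.05), while the description's column gave 3467. Without Sa mouse 3, Sa mouse 1 was the lone Sa mouse and was assumed to vary like the other groups, and 400 genes were higher and 522 lower; with the 2 compared groups fitted alone 1 gene passed both ways, although 1585 did at an unadjusted p under 0.05. When the libraries were first brought to one scale by a trimmed mean, the balance turned to 1074 genes that rose and 735 that fell (2045 and 1555 with the title's column, 1721 and 1456 with the description's), so which direction had more genes depended on the scaling. Without Sa mouse 1 the title's column alone gave 6898 genes.

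The largest increase of a gene with a symbol was that of S100g (NCBI Gene 12309, chromosome X), the calbindin that carries calcium through the enterocyte. It read 17.5 and 46.8 or 79.1 FPKM in Sa and 218, 360.0 and 209 after A10-FMT (log2 change 3.1 ± 0.58 and 2.73 ± 0.64, adjusted p = 0.0016 and 0.00397). All 3 A10-FMT mice stood above both Sa mice, a condition for naming a gene among the largest changes. The Sa mice themselves differed several-fold. Atp2b1, the pump that moves calcium out of the cell at its base, read 15.4 and 8.8 or 16.9 FPKM in Sa and 24.7, 21.7 and 21.7 after A10-FMT (log2 change 0.90 ± 0.15 and 0.47 ± 0.10, adjusted p = 0.000916 and 0.00258). Of 6 members of the calcium absorption list tested, these 2 rose and none fell. Next in size was Akp3 (NCBI Gene 11648, chromosome 1), an intestinal alkaline phosphatase, at 10.7 and 22.2 or 35.6 FPKM in Sa and 110.0, 189 and 86.6 after A10-FMT (log2 change 2.89 ± 0.62 and 2.57 ± 0.66, adjusted p = 0.00328 and 0.00695). Alpi, a neighbouring and closely related phosphatase of the brush border, was more abundant and changed less, from 314 and 327 or 314 FPKM in Sa to 470.2, 549 and 533 (log2 change 0.69 ± 0.14 and 0.72 ± 0.14, adjusted p = 0.00215 and 0.00105). The sequences of these phosphatases are alike, and the counting could have split reads between them. The 2 of them were the members of 3 tested that rose. A10-FMT also exceeded Con-FMT in each: S100g read 28.8 ± 13.8 FPKM (SD, n = 3) after Con-FMT (log2 change 3.23 ± 0.52, adjusted p = 0.00119) and Akp3 22.1 ± 11.9 FPKM (SD, n = 3) (log2 change 2.57 ± 0.56, adjusted p = 0.00534).

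The enzymes of the brush border rose together. Of 18 carbohydrases and peptidases tested, 10 rose and none fell, with a median log2 change of 0.64 and 0.71 against -0.012 and -0.081 for all genes tested. Anpep (aminopeptidase N), the most abundant of them, read 1531 and 1330.0 or 1033 FPKM in Sa and 2076, 1927 and 2363 after A10-FMT (log2 change 0.57 ± 0.095 and 0.75 ± 0.12, adjusted p = 0.00088 and 0.000415), with every A10-FMT mouse above both Sa mice. Mep1b, a subunit of the metallopeptidase meprin, read 214 and 155 or 153 FPKM in Sa and 337, 311 and 353 after A10-FMT (log2 change 0.87 ± 0.11 and 0.88 ± 0.11, adjusted p = 0.00051 and 0.000129). Tmprss15 (enteropeptidase), which activates trypsinogen, had the largest change of the list but a low level, at 0.73 and 0.22 or 0.64 FPKM in Sa and 3.53, 4.14 and 3.9 after A10-FMT (log2 change 1.74 ± 0.27 and 1.53 ± 0.26, adjusted p = 0.000664 and 0.000559). The list also holds Cpox, which belongs to heme synthesis and was not called in both fits. Without Sa mouse 3, 6 members were higher and 1 lower.

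The proteins that build the microvillus moved the same way. Of 15 tested, 12 rose and none fell (median log2 change 0.36 and 0.37), and without Sa mouse 3 the count was 8. Vil1 (log2 change 0.37 ± 0.068 and 0.47 ± 0.071, adjusted p = 0.0013 and 0.000263) bundles the actin core, and its values in the A10-FMT mice, given above, were all higher than in Sa. Espn (espin), another actin bundler, read 53.5 and 60.2 or 42.1 FPKM in Sa and 92.4, 93.2 and 125 after A10-FMT (log2 change 0.84 ± 0.17 and 1.09 ± 0.18, adjusted p = 0.00244 and 0.000397). Cdhr2, a cadherin that links the tips of microvilli, read 163 and 181 or 127 FPKM in Sa and 238, 234 and 268 after A10-FMT (log2 change 0.52 ± 0.09 and 0.77 ± 0.10, adjusted p = 0.00104 and 0.000147). In Tmigd1, a membrane protein of the brush border, the change was larger, from 15.6 and 7.41 or 11.1 FPKM in Sa to 42.7, 26.6 and 37.8 (log2 change 1.61 ± 0.34 and 1.35 ± 0.31, adjusted p = 0.00283 and 0.00386), but the call was lost without Sa mouse 3. Epcam was not called (log2 change 0.091 ± 0.051 and 0.036 ± 0.039, adjusted p = 0.172 and 0.503).

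Transport of amino acids and peptides was the next group. Of 13 members tested 8 rose and none fell, with medians of 0.47 and 0.61, and 7 were called without Sa mouse 3. Slc6a19, which takes up neutral amino acids, read 60.7 and 49.8 or 38.1 FPKM in Sa and 112, 107 and 152 after A10-FMT (log2 change 1.14 ± 0.15 and 1.33 ± 0.18, adjusted p = 0.00051 and 0.000149). Slc15a1 (PepT1), the carrier of small peptides, read 24.03 and 14.7 or 15.2 FPKM in Sa and 38.4, 37.1 and 39.7 after A10-FMT (log2 change 0.99 ± 0.15 and 0.97 ± 0.15, adjusted p = 0.000661 and 0.000295). The groups did not overlap in either gene. Slc7a9, a light chain of the cystine carrier, rose less (log2 change 0.35 ± 0.083 and 0.53 ± 0.093, adjusted p = 0.00583 and 0.000604). Slc3a2, the heavy chain of several amino acid carriers, passed only with the description's column (log2 change 0.10 ± 0.077 and 0.24 ± 0.079, adjusted p = 0.308 and 0.0283). Slc6a14, another amino acid carrier, read 0.36 and 0.69 or 0.15 FPKM in Sa and 2.3, 2.11 and 1.5 after A10-FMT (log2 change 0.96 ± 0.33 and 1.24 ± 0.33, adjusted p = 0.0343 and 0.00849). It was low throughout, and its call was lost without either Sa mouse.

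**Figure D2:**
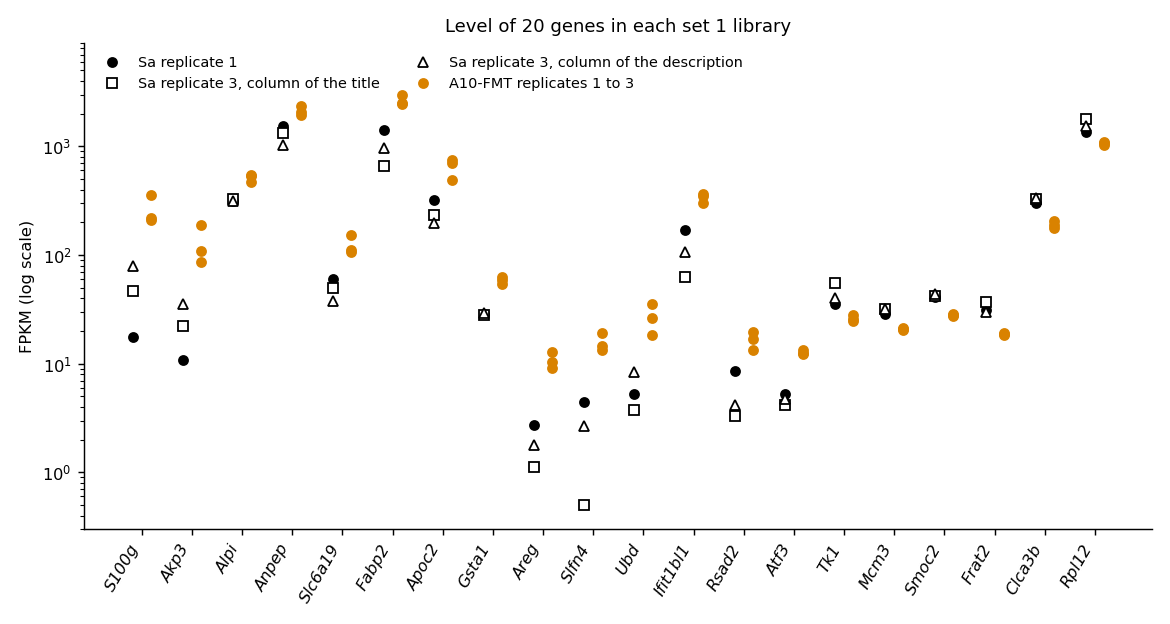
FPKM (log axis) of 20 of the genes named here in each library of the comparison, with both columns of Sa mouse 3. From S100g to Atf3 the 3 A10-FMT points lie above every Sa point, and from Tk1 to Rpl12 they lie below. For genes named as the largest changes this was a condition of being named.

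Fat uptake and the assembly of chylomicrons, the particles in which the enterocyte exports fat, contributed the most abundant transcripts that rose. Of 26 members tested 16 rose and none fell (median log2 change 0.45 and 0.58), and 9 were called without Sa mouse 3. Fabp2, which binds fatty acids inside the cell, read 1419 and 661 or 970.4 FPKM in Sa and 2508, 2446 and 2987 after A10-FMT (log2 change 1.44 ± 0.22 and 1.17 ± 0.16, adjusted p = 0.000584 and 0.000149). Apoa4, an apolipoprotein of chylomicrons, read 843 and 746 or 532 FPKM in Sa and 1298, 1604 and 1743 after A10-FMT (log2 change 0.95 ± 0.19 and 1.2 ± 0.22, adjusted p = 0.00228 and 0.000772). Apoa1 was higher still, at 1947 and 2009 or 1233 FPKM in Sa and 2911, 3384 and 4159 after A10-FMT (log2 change 0.80 ± 0.21 and 1.15 ± 0.24, adjusted p = 0.0101 and 0.0017), and the A10-FMT values did not overlap with those of Sa. Apoc2, the cofactor of lipoprotein lipase, read 324 and 235 or 196 FPKM in Sa and 489.9, 705 and 747 after A10-FMT (log2 change 1.2 ± 0.24 and 1.33 ± 0.25, adjusted p = 0.0020 and 0.00103). Without Sa mouse 3, Apoa1 and Apoc2 were no longer past the threshold, with log2 changes of 0.82 and 0.97. The summed level of all members was 8425 FPKM in Sa mouse 1, 6752 or 6096 in Sa mouse 3, and 12264, 13945 and 15231 in the A10-FMT mice.

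Bile acid, vitamin A and iron genes gave smaller counts, to be read beside the 7.13% of all genes that rose and the 11.2% that fell. In the ileal bile acid list 2 of 9 rose. Slc10a2, the transporter that recovers bile acids from the lumen, read 5.1 and 2.14 or 3.72 FPKM in Sa and 15.1, 6.56 and 13.2 after A10-FMT (log2 change 1.46 ± 0.37 and 1.16 ± 0.35, adjusted p = 0.00826 and 0.0161). Slc51b, a subunit of the exporter at the base of the cell, read 111 and 87.3 or 91.5 FPKM in Sa and 183, 151 and 218 after A10-FMT (log2 change 0.88 ± 0.19 and 0.85 ± 0.19, adjusted p = 0.00327 and 0.00273). Fabp6, which carries bile acids across the cell, passed only with the description's column (log2 change 0.65 ± 0.30 and 1.07 ± 0.31, adjusted p = 0.101 and 0.0146). Rbp2, which holds retinol after uptake, read 1717 and 1349 or 1295 FPKM in Sa and 2373, 2637 and 2798 after A10-FMT (log2 change 0.77 ± 0.15 and 0.80 ± 0.16, adjusted p = 0.00216 and 0.00133). Dhrs3, which turns retinal back to retinol, fell (log2 change -0.52 ± 0.091 and -0.35 ± 0.089, adjusted p = 0.00103 and 0.00652). These lay among 14 retinoid genes of which 2 rose, the other being Scarb1, and 1 fell. Heph, the ferroxidase of iron export, read 35.3 and 18.8 or 27.5 FPKM in Sa and 50.6, 43.7 and 48.9 after A10-FMT (log2 change 0.86 ± 0.15 and 0.60 ± 0.09, adjusted p = 0.00121 and 0.000273). Steap3, a ferric reductase, fell (log2 change -0.62 ± 0.11 and -0.47 ± 0.08, adjusted p = 0.00103 and 0.000545). These were the 2 calls among 9 iron genes, 1 in each direction and near the shares over all genes. The calls of Slc10a2, Slc51b, Rbp2 and Scarb1 were lost without Sa mouse 3.

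Sugar transport did not move as a group, with 2 of 10 members that rose and 1 that fell. G6pc, which releases free glucose, rose (log2 change 0.51 ± 0.19 and 0.64 ± 0.20, adjusted p = 0.0469 and 0.0217). Fbp1, of gluconeogenesis, fell (log2 change -0.65 ± 0.17 and -0.53 ± 0.17, adjusted p = 0.00996 and 0.0202). Both calls were lost without Sa mouse 3. Slc5a1, the main glucose carrier, read 169 and 122 or 134 FPKM in Sa and 166, 171 and 178 after A10-FMT and overlapped between the groups. Of 38 enzymes and carriers that handle foreign compounds and glutathione, 11 rose and 1 fell. Gsta1, a glutathione transferase with close paralogs, read 28.7 and 27.8 or 29.6 FPKM in Sa and 59.1, 63.4 and 54.5 after A10-FMT (log2 change 1.03 ± 0.20 and 0.99 ± 0.20, adjusted p = 0.00193 and 0.00164). Cyp3a13 and Cyp4b1, both cytochromes P450, had log2 changes of 0.95 and 0.69 and of 0.90 and 0.91, although neither call held without Sa mouse 3. Of 21 genes of fatty acid oxidation 3 rose and 3 fell, where 7.13% of all genes rose and 11.2% fell. Of the 27 genes of sterol and fatty acid synthesis 1 rose (Sc5d), and that call was lost without Sa mouse 3.

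Interferon-stimulated genes made up the second large group of increases. Of 52 tested 30 rose and none fell, with a median log2 change of 0.57 and 0.49, and of 14 interferon-induced GTPases of the IRG and GBP families 9 rose and none fell (0.90 and 0.55). In the 250 bases before the start of transcription, the core of the interferon-stimulated response element, searched as GAAANNGAAA on both strands, was found in 3.46% of 27025 promoters (RefSeq, GRCm38.p6). It was found in 15 of the 41 promoters of the first list that had an entry (36.6%) and in 8 of 9 of the second (88.9%), and in 7.67% of the 613 promoters of all genes that rose and 2.47% of the 1013 of genes that fell. Within the interferon lists, Schlafen genes included, 16 of the 31 genes that rose (51.6%) and 9 of the 23 others (39.1%) held it. A match describes these letters and is not evidence of binding. The following 60-base stretches come from members with a match that rose, ranked by the title's column. The description's column does not keep this order. Members on a chromosome that was set aside were not ranked, and the first 6 of the rest are shown. They are printed 5′ to 3′ along the gene, with the matching bases in capitals, to show where the element lies.

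Ifit1bl1, chr19:34602038-34602097, minus strand: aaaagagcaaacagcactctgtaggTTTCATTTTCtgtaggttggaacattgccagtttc
Rsad2, chr12:26456538-26456597, minus strand: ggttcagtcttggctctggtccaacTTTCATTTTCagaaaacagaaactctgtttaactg
Ddx60, chr8:61928009-61928068, plus strand: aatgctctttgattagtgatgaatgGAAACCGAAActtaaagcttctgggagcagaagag
Ifit1, chr19:34640760-34640819, plus strand: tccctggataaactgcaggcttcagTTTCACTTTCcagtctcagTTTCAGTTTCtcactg
Gbp7, chr3:142530258-142530317, plus strand: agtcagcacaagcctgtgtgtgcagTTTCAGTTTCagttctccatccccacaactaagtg
Trim30a, chr7:104465195-104465254, minus strand: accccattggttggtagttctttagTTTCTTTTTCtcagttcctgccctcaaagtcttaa

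The element read TTTC on the coding strand in 5 of these stretches and GAAA in Ddx60, and it was present 2 times in the stretch of Ifit1. Ifit1bl1, a member of the IFIT family of RNA-binding antiviral proteins, read 172 and 63.5 or 106 FPKM in Sa and 347, 364 and 302 after A10-FMT (log2 change 1.68 ± 0.26 and 1.31 ± 0.18, adjusted p = 0.000629 and 0.000149). Ifit1 itself read 48.4 and 17.6 or 29.2 FPKM in Sa and 69.6, 75.2 and 72.05 after A10-FMT (log2 change 1.27 ± 0.23 and 0.92 ± 0.14, adjusted p = 0.00132 and 0.000246). Ifit2 read 17.3 and 6.51 or 10.3 FPKM in Sa and 30.7, 30.2 and 24.4 after A10-FMT (log2 change 1.32 ± 0.29 and 1.03 ± 0.23, adjusted p = 0.00338 and 0.00347). IFIT genes are close copies, and reads may have been split between them. Rsad2 (viperin), which makes a chain-terminating nucleotide against viruses, read 8.52 and 3.31 or 4.18 FPKM in Sa and 13.3, 19.4 and 16.7 after A10-FMT (log2 change 1.43 ± 0.28 and 1.3 ± 0.26, adjusted p = 0.00199 and 0.00143). In each of these the 3 A10-FMT mice were above both Sa mice, and Sa mouse 1 was higher than Sa mouse 3 in either column. Ddx60, a helicase of RNA sensing, read 27.4 and 7.82 or 15.4 FPKM in Sa and 38.9, 43.5 and 34.99 after A10-FMT (log2 change 1.34 ± 0.28 and 0.89 ± 0.16, adjusted p = 0.00269 and 0.000748). Trim30a, a ubiquitin ligase, read 28.7 and 9.59 or 15.8 FPKM in Sa and 38.4, 37.99 and 32.8 after A10-FMT (log2 change 1.07 ± 0.24 and 0.74 ± 0.15, adjusted p = 0.00438 and 0.00183).

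Of the GTPases that guard vacuoles of intracellular microbes, Gbp7 read 3.17 and 0.69 or 2.81 FPKM in Sa and 4.71, 4.45 and 5.01 after A10-FMT (log2 change 1.11 ± 0.23 and 0.52 ± 0.11, adjusted p = 0.00241 and 0.00167). Gbp6 read 14.5 and 4.84 or 11.9 FPKM in Sa and 22.97, 21.3 and 20.6 after A10-FMT (log2 change 1.25 ± 0.26 and 0.68 ± 0.14, adjusted p = 0.00248 and 0.00224). Iigp1 read 3.97 and 1.37 or 4.59 FPKM in Sa and 11.1, 7 and 8.13 after A10-FMT (log2 change 1.48 ± 0.32 and 0.86 ± 0.27, adjusted p = 0.00302 and 0.0208). Irgm1, the most abundant of them, rose less, from 104 and 59.8 or 91.8 FPKM in Sa to 126, 118 and 118 (log2 change 0.60 ± 0.16 and 0.30 ± 0.10, adjusted p = 0.00914 and 0.0315). Igtp read 24.7 and 15.4 or 25.5 FPKM in Sa and 37.4, 40.5 and 36.4 after A10-FMT (log2 change 0.93 ± 0.18 and 0.58 ± 0.15, adjusted p = 0.00203 and 0.00825). The increase was not shared by all abundant interferon genes: Lgals3bp read 391 and 447 or 322 FPKM in Sa and 379, 423 and 405 after A10-FMT (log2 change -0.057 ± 0.078 and 0.18 ± 0.08, adjusted p = 0.59 and 0.0938). Ifitm3 read 380.2 and 480.1 or 328 FPKM in Sa and 300.4, 398 and 285 after A10-FMT (log2 change -0.40 ± 0.15 and -0.12 ± 0.14, adjusted p = 0.0464 and 0.526). Without Sa mouse 3, 10 of 52 interferon-stimulated genes and 2 of 14 GTPases were called. Ifit1bl1, Ifit1, Ddx60, Gbp7 and Gbp2 were among those still called without that mouse, with log2 changes of 0.97, 0.57, 0.49, 0.46 and 0.77, and Rsad2, Ifit2, Trim30a, Iigp1, Gbp6, Igtp and Irgm1 were not.

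Of 4 Schlafen genes tested 3 rose, with a median log2 change of 0.89 and 0.72 over the list. Slfn4 read 4.45 and 0.5 or 2.7 FPKM in Sa and 13.4, 19.3 and 14.5 after A10-FMT (log2 change 2.53 ± 0.40 and 1.88 ± 0.29, adjusted p = 0.000673 and 0.00032). Slfn2 (log2 change 0.87 ± 0.15 and 0.85 ± 0.15, adjusted p = 0.000968 and 0.000565) and Slfn5 (log2 change 0.90 ± 0.25 and 0.60 ± 0.18, adjusted p = 0.0114 and 0.0156) changed less. Slfn9, by contrast, read 20.4 and 6.84 or 21.1 FPKM in Sa and 16.2, 15.5 and 13.8 after A10-FMT and changed sign with the column (log2 change 0.31 ± 0.25 and -0.43 ± 0.11, adjusted p = 0.333 and 0.00567). Of 21 NOD-like receptor and inflammasome genes 6 rose and 1 fell. Gsdmd (gasdermin D), whose cleaved form makes pores in membranes, read 92.6 and 92.1 or 62.9 FPKM in Sa and 156, 159.6 and 171 after A10-FMT (log2 change 0.80 ± 0.12 and 1.07 ± 0.14, adjusted p = 0.000547 and 0.000149), with no overlap. Nlrc5, an activator of MHC class I genes, read 3.62 and 2.19 or 4.03 FPKM in Sa and 5.23, 4.96 and 5.89 after A10-FMT (log2 change 0.73 ± 0.17 and 0.40 ± 0.14, adjusted p = 0.00456 and 0.0418). B2m, the shared light chain of class I molecules, read 1299 and 1092 or 1229 FPKM in Sa and 1511, 1513 and 1651 after A10-FMT (log2 change 0.39 ± 0.09 and 0.30 ± 0.079, adjusted p = 0.00495 and 0.00785). The class I heavy chains gave 1 call of 13, near the 7.13% of all genes that rose. It was H2-Q1, which rose (log2 change 1.01 ± 0.18 and 0.76 ± 0.14, adjusted p = 0.0013 and 0.00088). In the class II list 1 of 8 rose, Ctss, a protease of antigen processing (log2 change 0.47 ± 0.097 and 0.39 ± 0.084, adjusted p = 0.0026 and 0.00247). Antigen processing gave 3 of 16, among them Ubd, a ubiquitin-like protein, at 5.23 and 3.73 or 8.43 FPKM in Sa and 18.6, 26.4 and 35.6 after A10-FMT (log2 change 2.31 ± 0.36 and 1.81 ± 0.36, adjusted p = 0.00062 and 0.00152). H2-D1 passed only with the description's column (log2 change 0.10 ± 0.14 and 0.39 ± 0.14, adjusted p = 0.57 and 0.0374). So did H2-K1 (log2 change 0.43 ± 0.27 and 1.04 ± 0.25, adjusted p = 0.221 and 0.00436). MHC heavy chains share long stretches of sequence.

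**Figure D3:**
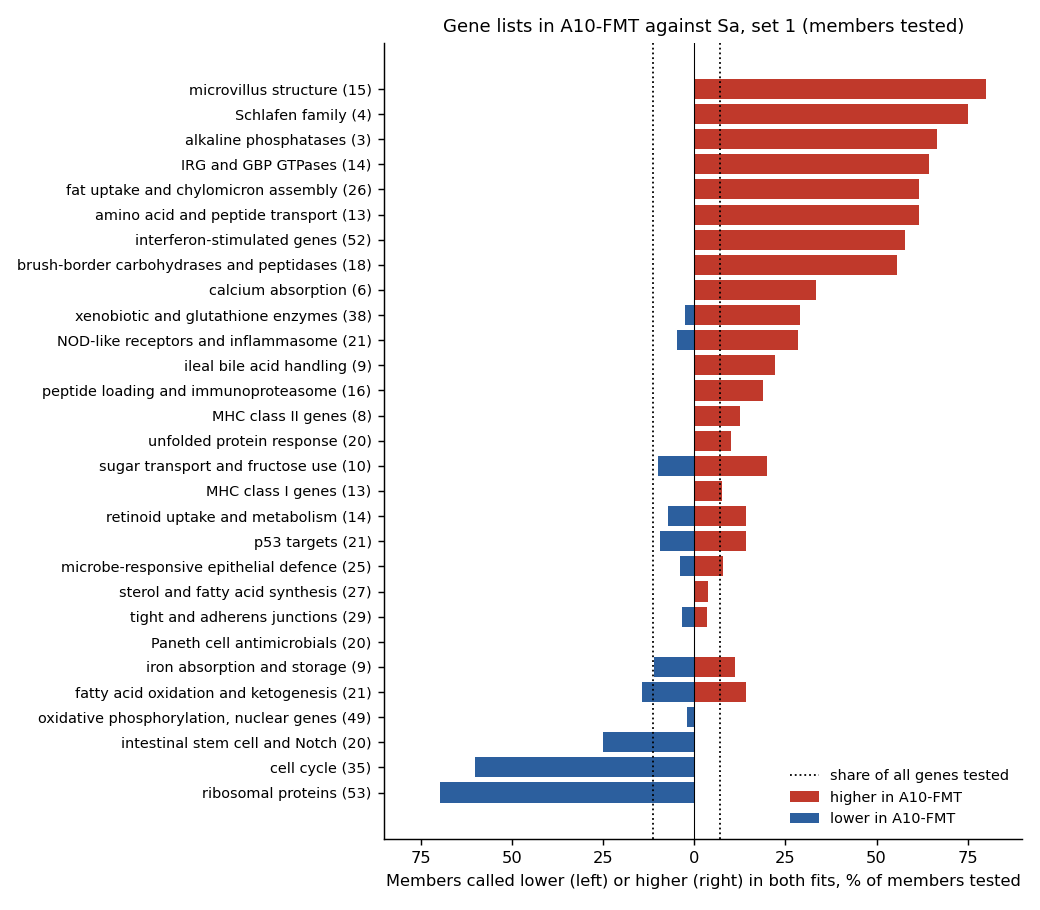
Percent of the tested members of each list that fell (left) or rose (right) between Sa and A10-FMT of set 1, with the number tested in brackets and dotted lines at the shares over all genes (7.13% rose and 11.2% fell). The absorptive and interferon lists extend to the right, and the cell cycle and ribosomal lists to the left.

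Antimicrobial genes of the epithelium did not move as a group. Of 25 microbe-responsive genes 2 rose and 1 fell. The bactericidal lectin Reg3b read 10102 and 10431 or 8511 FPKM in Sa and 11799, 13519.9 and 10636 after A10-FMT (log2 change 0.22 ± 0.28 and 0.36 ± 0.28, adjusted p = 0.561 and 0.335). Its relative Reg3g read 9273 and 8987 or 8804 FPKM in Sa and 9401, 11172 and 9028 after A10-FMT (log2 change 0.11 ± 0.24 and 0.12 ± 0.24, adjusted p = 0.752 and 0.728). Neither was called, and the direction of Reg3g turned when GC and length trends were taken out. Lcn2, which withholds iron from bacteria, fell from a low level, 3.55 and 3.57 or 3.78 FPKM in Sa and 0.69, 2.16 and 1.75 after A10-FMT (log2 change -0.90 ± 0.27 and -0.93 ± 0.27, adjusted p = 0.0184 and 0.0133). Among 20 Paneth cell genes none rose or fell, with the most abundant, Defa31, at 12252 and 10506 or 12156 FPKM in Sa and 9328, 11371 and 7903 after A10-FMT (log2 change -0.27 ± 0.28 and -0.37 ± 0.28, adjusted p = 0.472 and 0.318). The defensin genes are near-identical copies, so their separate values are uncertain.

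The crypt lists went the other way from the villus lists. Of 35 cell cycle genes 21 fell and none rose, with a median log2 change of -0.36 and -0.40, and 17 were called without Sa mouse 3. Mcm3, a subunit of the replicative helicase, read 28.7 and 31.7 or 32.2 FPKM in Sa and 20.8, 21.4 and 20.3 after A10-FMT (log2 change -0.51 ± 0.079 and -0.52 ± 0.076, adjusted p = 0.00062 and 0.000228). Tk1, thymidine kinase, read 35.7 and 55.8 or 40.7 FPKM in Sa and 24.9, 27.8 and 25.99 after A10-FMT (log2 change -0.75 ± 0.13 and -0.52 ± 0.089, adjusted p = 0.00105 and 0.000532). Aurkb, a kinase of mitosis, read 27.5 and 34.9 or 31.9 FPKM in Sa and 20.7, 22.04 and 20.7 after A10-FMT (log2 change -0.53 ± 0.092 and -0.47 ± 0.08, adjusted p = 0.00102 and 0.000516). The 3 A10-FMT values lay close together and below both Sa mice in each. Ube2c, which marks mitotic proteins for destruction, fell from 151 and 202 or 183 FPKM in Sa to 127, 131 and 119 (log2 change -0.47 ± 0.094 and -0.40 ± 0.077, adjusted p = 0.00208 and 0.00119). Pcna, the sliding clamp, passed only with the description's column (log2 change -0.16 ± 0.076 and -0.35 ± 0.058, adjusted p = 0.112 and 0.000435). In whole tissue, fewer cells of a type and less RNA per cell cannot be told apart, and this holds for every list here.

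Of 20 genes of intestinal stem cells and Notch signalling 5 fell and none rose. Smoc2, a stem cell marker, read 41.3 and 42.2 or 44.2 FPKM in Sa and 28.7, 28.3 and 27.6 after A10-FMT (log2 change -0.55 ± 0.079 and -0.58 ± 0.076, adjusted p = 0.000525 and 0.000149). Ascl2, a transcription factor of the crypt base, read 6.95 and 9.91 or 6.87 FPKM in Sa and 4.44, 3.97 and 5.39 after A10-FMT (log2 change -0.74 ± 0.18 and -0.51 ± 0.16, adjusted p = 0.00603 and 0.024). Sox9 read 6.97 and 7.4 or 7.34 FPKM in Sa and 5.16, 5.11 and 5.42 after A10-FMT (log2 change -0.39 ± 0.11 and -0.39 ± 0.11, adjusted p = 0.0131 and 0.0101). Neither call held without Sa mouse 3. Olfm4, the most abundant member, read 497 and 298 or 483 FPKM in Sa and 347, 336 and 304 after A10-FMT and was called with the description's column alone (log2 change -0.23 ± 0.17 and -0.58 ± 0.12, adjusted p = 0.296 and 0.00194); its change was 0.14 without Sa mouse 1. Lgr5 was among the members not called in both fits.

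Ribosomal protein genes were lower as well. Of 53 tested 37 fell and none rose (median log2 change -0.51 and -0.32), against 14 without Sa mouse 3. Rpl12 read 1364 and 1776 or 1552 FPKM in Sa and 1021, 1098 and 1074 after A10-FMT (log2 change -0.55 ± 0.082 and -0.45 ± 0.059, adjusted p = 0.000584 and 0.000147). Rpl32 read 1143 and 1838 or 1284 FPKM in Sa and 818, 1016 and 899 after A10-FMT (log2 change -0.67 ± 0.13 and -0.42 ± 0.078, adjusted p = 0.00186 and 0.00101). Rpl28, one of the most abundant transcripts of the tissue, read 2220.0 and 3205 or 2562 FPKM in Sa and 1789, 1963 and 1985 after A10-FMT (log2 change -0.48 ± 0.10 and -0.32 ± 0.065, adjusted p = 0.0030 and 0.00164). The summed level of the list was 43203 FPKM in Sa mouse 1, 60963 or 46021 in Sa mouse 3, and 33575, 38121 and 34916 in the A10-FMT mice, so the title's column stood far above every other library of the comparison. Ribosomal protein genes have many processed copies in the genome, which could take reads. Nuclear genes of oxidative phosphorylation differed with the choice of column. Of 49 tested, 17 were lower with the title's column and 1 with the description's, and 1 fell in both (Ndufa10, log2 change -0.26 ± 0.07 and -0.15 ± 0.045, adjusted p = 0.0107 and 0.0167).

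**Figure D4:**
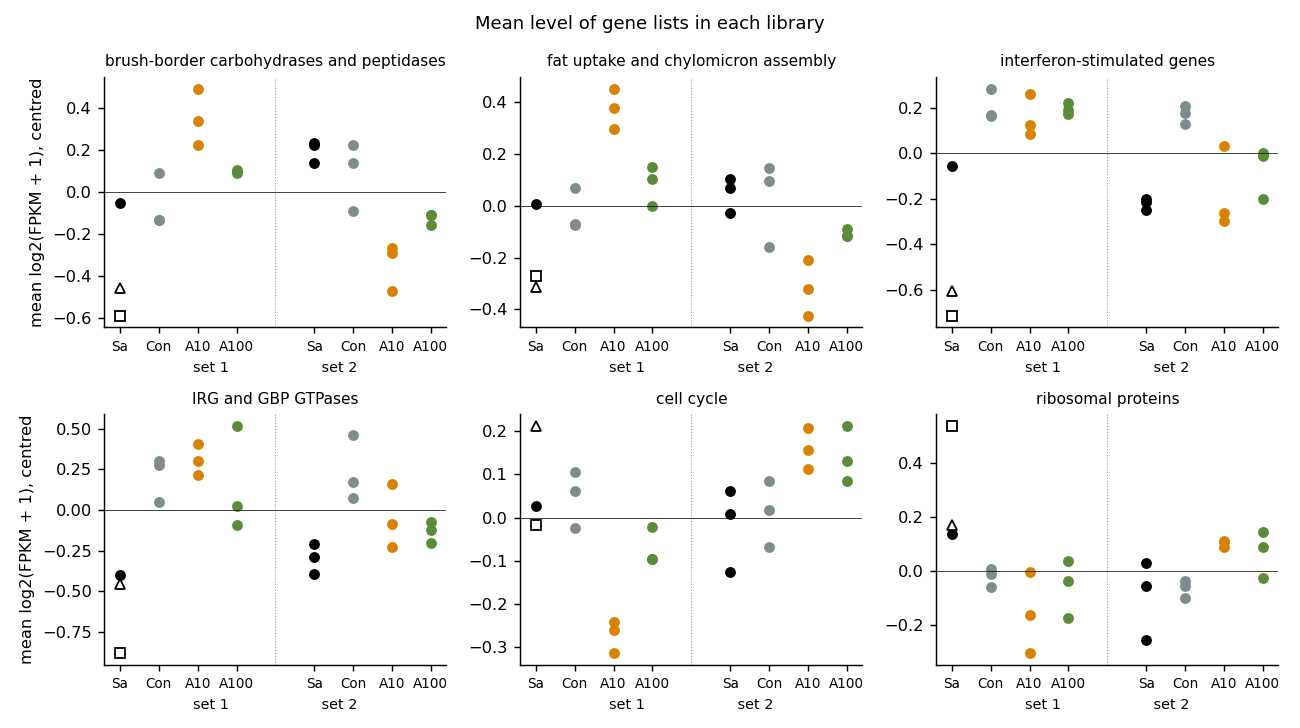
Mean log2(FPKM + 1) of the tested members of 6 lists in every library of both sets, centred for each list, with the open square and open triangle for the title's and the description's column of Sa mouse 3 of set 1. In set 1 the A10-FMT libraries are the highest of the set in the brush-border and fat uptake lists and the lowest in the cell cycle list, and in the list of interferon-stimulated genes the Con-FMT and A100-FMT libraries lie as high as those of A10-FMT.

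Several genes outside the main groups were among the largest changes. Areg (amphiregulin), a growth factor for epithelium, read 2.74 and 1.11 or 1.77 FPKM in Sa and 10.4, 9.18 and 12.8 after A10-FMT (log2 change 2.06 ± 0.28 and 1.86 ± 0.26, adjusted p = 0.00051 and 0.00017). Ido1, which breaks down tryptophan and responds to interferon, read 8.11 and 7.23 or 7.56 FPKM in Sa and 24.8, 23.2 and 29.4 after A10-FMT (log2 change 1.62 ± 0.22 and 1.59 ± 0.22, adjusted p = 0.00051 and 0.000164). Ada (adenosine deaminase) read 12.6 and 20.8 or 13.4 FPKM in Sa and 32.02, 56.8 and 71.4 after A10-FMT (log2 change 1.59 ± 0.35 and 1.89 ± 0.34, adjusted p = 0.00368 and 0.000679). Aldh4a1, of proline breakdown, read 4.44 and 2.39 or 2.42 FPKM in Sa and 11.03, 11.4 and 19.3 after A10-FMT (log2 change 1.75 ± 0.25 and 1.75 ± 0.25, adjusted p = 0.000547 and 0.000205). The values of the A10-FMT mice were above those of both Sa mice in all of these, which was a condition for naming them among the largest changes. Clca4a, of the calcium-activated chloride channel regulators, read 5.44 and 2.55 or 3.04 FPKM in Sa and 19.1, 17.5 and 24.7 after A10-FMT (log2 change 2.15 ± 0.44 and 2.06 ± 0.44, adjusted p = 0.00245 and 0.00216). Krt12, a keratin, read 3.53 and 1.54 or 3.16 FPKM in Sa and 12.3, 8.79 and 16.3 after A10-FMT (log2 change 1.95 ± 0.35 and 1.59 ± 0.33, adjusted p = 0.00126 and 0.00185). Ly6m read 2.87 and 3.16 or 1.58 FPKM in Sa and 8.64, 10.6 and 11.3 after A10-FMT (log2 change 1.47 ± 0.45 and 1.82 ± 0.46, adjusted p = 0.0212 and 0.00667). Of these, Clca4a and Ly6m were not called without Sa mouse 3.

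The largest decreases were smaller or rested on low values. H2ac12, a core histone gene with many near-identical copies, read 25.8 and 14.3 or 26.9 FPKM in Sa and 2.8, 0 and 9.16 after A10-FMT (log2 change -2.59 ± 0.75 and -3.02 ± 0.74, adjusted p = 0.016 and 0.00558). H3c2 read 3.71 and 3.16 or 2.42 FPKM in Sa and 0.64, 1.81 and 1.14 after A10-FMT (log2 change -1.05 ± 0.27 and -0.90 ± 0.28, adjusted p = 0.00917 and 0.0197). Mfge8, which bridges dying cells to phagocytes, read 22.6 and 24.9 or 19.6 FPKM in Sa and 10.2, 12.1 and 11.99 after A10-FMT (log2 change -0.99 ± 0.15 and -0.83 ± 0.15, adjusted p = 0.000584 and 0.000681). Clca3b, the most abundant of the 12 largest decreases, read 301 and 330.0 or 333 FPKM in Sa and 205, 189.7 and 178 after A10-FMT (log2 change -0.72 ± 0.12 and -0.73 ± 0.12, adjusted p = 0.000837 and 0.000389). Both groups were tight in these last 2 genes, and lying apart was a condition for naming them. Coq8a, of coenzyme Q synthesis, and Frat2, of Wnt signalling, changed by -0.90 and -0.69 and by -0.82 and -0.67 on the log2 scale. Lmcd1, Ceacam10 and Mreg were also among the 12, with log2 changes of -0.69 and -0.68, -0.75 and -0.83 and -0.71 and -0.68, and Mreg was the only 1 of these 3 still called without Sa mouse 3.

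Genes of damage and stress did not move as groups. Of 21 p53 targets 3 rose and 2 fell, where 7.13% of all genes rose and 11.2% fell. Their median log2 change was 0.059 and 0.015. Fas, the death receptor, read 12.5 and 9.48 or 11.4 FPKM in Sa and 17.8, 18.97 and 18.99 after A10-FMT (log2 change 0.72 ± 0.095 and 0.60 ± 0.075, adjusted p = 0.00051 and 0.000129). Pmaip1 (Noxa), a promoter of cell death, rose (log2 change 0.87 ± 0.18 and 0.45 ± 0.098, adjusted p = 0.00229 and 0.0027). Gtse1, which is also a gene of dividing cells, fell (log2 change -0.51 ± 0.08 and -0.46 ± 0.073, adjusted p = 0.000661 and 0.000366). Of 20 genes of the unfolded protein response 2 rose and none was lower in both fits, with a median log2 change of -0.010 and -0.051. Atf3, a transcription factor, read 5.27 and 4.15 or 4.69 FPKM in Sa and 12.4, 13.5 and 12.5 after A10-FMT (log2 change 1.28 ± 0.16 and 1.21 ± 0.15, adjusted p = 0.000476 and 0.000129), and Trib3 rose less (log2 change 0.57 ± 0.12 and 0.79 ± 0.12, adjusted p = 0.0036 and 0.000246). The chaperone Hspa5 read 540.1 and 314 or 519 FPKM in Sa and 529, 492 and 499.8 after A10-FMT and overlapped between the groups.

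The study followed a number of proteins by immunofluorescence and Western blotting. It reported junction proteins, ZO-1, E-cadherin and occludin among them, at higher levels after A10-FMT than in Sa. RNA and protein are different measures, and protein was not measured here. The genes of all the proteins followed were taken as a list. Of these, 10 were tested here. Vil1 was the 1 that rose and none fell. Tjp1 (ZO-1), a scaffold of tight junctions, read 19.8 and 11.8 or 21.03 FPKM in Sa and 17.96, 14.7 and 14.7 after A10-FMT, and its change turned with the column (log2 change 0.034 ± 0.14 and -0.36 ± 0.096, adjusted p = 0.874 and 0.00916). Ocln (occludin) read 33.2 and 23.9 or 33.6 FPKM in Sa and 31.9, 30.2 and 30.02 after A10-FMT (log2 change 0.12 ± 0.097 and -0.12 ± 0.063, adjusted p = 0.348 and 0.157), and it too turned sign with the column. Cdh1 (E-cadherin) read 239.9 and 233 or 244 FPKM in Sa and 228, 208 and 215 after A10-FMT (log2 change -0.13 ± 0.055 and -0.16 ± 0.049, adjusted p = 0.0844 and 0.0201). Over the list of 29 junction genes 1 rose (Cdh17, log2 change 0.39 ± 0.075 and 0.23 ± 0.048, adjusted p = 0.0019 and 0.00164) and 1 fell (Gjb1, log2 change -0.41 ± 0.093 and -0.21 ± 0.077, adjusted p = 0.00437 and 0.0489). For Gata4, Sox4, Klf7, Bcl2l1 and Ctnnd1 the log2 changes were -0.28 and -0.18, -0.32 and -0.57, 0.17 and -0.012, -0.028 and 0.15 and 0.095 and 0.037, and none of them was called in both fits.

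Markers of other cells and of position along the gut were set beside these lists. Summed goblet cell markers read 9333 FPKM in Sa mouse 1, 12778 or 8254 in Sa mouse 3 and 9922 to 11260.1 in the A10-FMT mice, with 1 of 12 that rose. T and cytotoxic cell markers summed to 108 in Sa mouse 1, 144 or 109 in Sa mouse 3 and 82.5 to 162 after A10-FMT (0 of 8 tested called). Smooth muscle markers summed to 75.5, 55.0 or 71.9, and 66.2 to 76.9, and B and plasma cell markers to 108, 105 or 104, and 88.4 to 103. Red cell genes summed to at most 20.5. Markers of the proximal small intestine moved with the absorptive lists: 4 of 8 rose, and their sum was 2199.6 in Sa mouse 1, 1455 or 1601 in Sa mouse 3 and 3062 to 4055 after A10-FMT. Distal markers, of which 2 of 8 rose, summed to 5441, 5892 or 4582, and 5979.9 to 6082. Whether the stretch of gut sampled had a part in the absorptive lists was not tested. Of 12 immediate early genes 4 rose and 1 fell, and of 13 clock genes 2 fell, where 7.13% of all genes rose and 11.2% fell.

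A10-FMT was next set against the other transplants of set 1, a comparison in which no Sa library enters the difference. Against Con-FMT, 590 genes (5.2%) were higher and 1301 (11.5%) lower, and after scaling by a trimmed mean 892 and 618. The choice of column still changed the pooled spread, and with the description's column the counts were 1027 (9.05%) and 2698 (23.8%). Among the 808 genes that rose against Sa, 391 were also higher than Con-FMT in both fits, and among the 1266 that fell 560 were also lower. These counts share the A10-FMT mice with the comparison with Sa.

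The absorptive lists and the crypt lists differed from Con-FMT, and the interferon lists hardly did. With the title's column, higher than after Con-FMT were 8 of 18 brush-border enzymes (1 was lower), 7 of 15 microvillus genes, 9 of 13 amino acid and peptide carriers and 16 of 26 fat uptake genes (1 lower). Slc6a19 read 53.97 ± 1.14 FPKM (SD, n = 3) after Con-FMT (log2 change 1.16 ± 0.14, adjusted p = 0.000256). Fabp2 read 1245 ± 44.6 FPKM (SD, n = 3) there (log2 change 1.08 ± 0.19, adjusted p = 0.00159), and Anpep 1535 ± 46.7 FPKM (SD, n = 3) (log2 change 0.46 ± 0.085, adjusted p = 0.00194). Lower were 21 of 35 cell cycle genes, with Mcm3 at 28.1 ± 1.76 FPKM (SD, n = 3) (log2 change -0.42 ± 0.071, adjusted p = 0.00134), and 9 of 20 stem cell and Notch genes. Of the 52 interferon-stimulated genes 3 were higher and 2 lower with a median difference of 0.0077, and of 53 ribosomal protein genes 2 were lower. Ifit1bl1 read 252 ± 21.6 FPKM (SD, n = 3) (log2 change 0.42 ± 0.23, adjusted p = 0.225) and Rsad2 14.1 ± 3.54 FPKM (SD, n = 3) (log2 change 0.22 ± 0.25, adjusted p = 0.586). With the description's column in the pooled spread, 12 brush-border enzymes were higher and 2 lower, and 31 cell cycle genes were lower. Interferon-stimulated genes then gave 4 higher and 6 lower, and ribosomal protein genes 9 lower, where 23.8% of all genes were lower.

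The values of the other transplants against the same 2 Sa mice stand beside those of A10-FMT, and all 3 comparisons share these Sa mice. The median log2 change of the interferon-stimulated genes was 0.59 and 0.51 for Con-FMT, 0.63 and 0.56 for A100-FMT, and 0.57 and 0.49 for A10-FMT. For the brush-border enzymes it was 0.16 and 0.21 for Con-FMT, 0.35 and 0.41 for A100-FMT, and 0.64 and 0.71 for A10-FMT. Against A100-FMT directly, A10-FMT had 194 genes higher (1.71%) and 448 lower (3.95%), and 302 higher and 129 lower after scaling by a trimmed mean. With the description's column in the pooled spread the counts were 466 (4.11%) and 1826 (16.1%), and with the 4 groups of set 1 fitted alone both were 0, against 1674 genes at an unadjusted p under 0.05. With the title's column 3 of 18 brush-border enzymes, 4 of 15 microvillus genes, 5 of 13 amino acid and peptide carriers and 7 of 26 fat uptake genes were higher, 2 of 35 cell cycle genes were lower, and of the interferon-stimulated genes 1 was lower. S100g read 73.95 ± 27.4 FPKM after A100-FMT (SD, n = 3) and Fabp2 1737 ± 201. Leaving out A100-FMT mouse 3 brought the total of this comparison down to 27 genes, and leaving out Con-FMT mouse 1 brought the total against Con-FMT down to 951.

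Set 2 held 3 other A10-FMT libraries and 3 other Sa libraries, under another code that the labels do not explain. Whether they came from other mice than those of set 1 is not stated. Each library of set 2 is called a mouse below. There 10 genes (0.0882%) were higher after A10-FMT and 38 (0.335%) lower, and with the description's column in the pooled spread 148 (1.3%) and 204 (1.8%). Array quality weights turned this split to 1063 higher and 708 lower, and the total was 1 without A10-FMT mouse 2 or Sa mouse 2 of set 2, 2 without Sa mouse 3 of set 2 and 390 without Sa mouse 3 of set 1. Of the 808 genes that rose in set 1, 104 had a positive change in set 2 (12.9%, against 59.1% of all genes), and of the 1266 that fell 119 had a negative one (9.4%, against 40.8%). None of either group was called in the same direction in set 2, where 1627 genes in all passed at an unadjusted p under 0.05. Median changes in set 2 were -0.18 for the genes that had risen in set 1 and 0.14 for those that had fallen.

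The difference between the sets was itself tested. With the title's column 3216 genes (28.4%) differed in their response to A10-FMT between the sets, and 36.2% did with the description's column. Without Sa mouse 3 of set 1 the number was 2313, and without Sa mouse 1 it was 6616. Of the 808 genes that rose 700, and of the 1266 that fell 1115, differed in both fits. These genes were picked by the set 1 change that enters the difference, so a share above that of all genes was favored in advance. Fabp2 in set 2 read 1599.8 ± 228 FPKM with saline and 874 ± 91.5 with A10-FMT (mean ± SD of 3 mice a group; difference between the sets 2.31 ± 0.29, adjusted p = 0.000164). Slc6a19 read 67.5 ± 4.12 FPKM with saline and 37.7 ± 3.25 with A10-FMT (difference between the sets 1.96 ± 0.20, adjusted p = 5.06e-05). S100g read 97.4 ± 63.6 FPKM with saline and 57.01 ± 16.6 with A10-FMT (difference between the sets 3.66 ± 0.78, adjusted p = 0.00284). The order of the groups in these genes was opposite to that of set 1. Mcm3 read 23.8 ± 1.704 FPKM with saline and 28.9 ± 1.36 with A10-FMT (difference between the sets -0.79 ± 0.11, adjusted p = 0.00024). Rpl12 read 1195 ± 51.9 FPKM with saline and 1334 ± 30.5 with A10-FMT (difference between the sets -0.71 ± 0.11, adjusted p = 0.000466).

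By list, the brush-border enzymes had a median change of -0.59 in set 2, the microvillus genes -0.22, the amino acid and peptide carriers -0.39 and the fat uptake genes -0.37. The cell cycle genes stood at 0.19 with 35 of 35 members higher and the ribosomal protein genes at 0.17 with 50 of 53 higher. Over all genes in set 2 the median was 0.029, and 59.1% were higher. The interferon GTPases had the same sign in both sets, with a median of 0.30 in set 2. Of 14 members 11 were higher there, where 59.1% of all genes were, and none was called. Between the sets 2 of the 14 differed, where 28.4% of all genes did with the title's column. Iigp1 read 3.32 ± 0.86 FPKM with saline and 6.91 ± 1.17 with A10-FMT in set 2 (difference between the sets 0.60 ± 0.42, adjusted p = 0.29). Igtp read 26.5 ± 3.76 FPKM with saline and 33.98 ± 2.17 with A10-FMT (difference between the sets 0.57 ± 0.25, adjusted p = 0.0892). Interferon-stimulated genes had a median of 0.032 there, and 21 of 52 differed between the sets. Set, library code and any difference in treatment between the sets cannot be told apart.

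**Figure D5:**
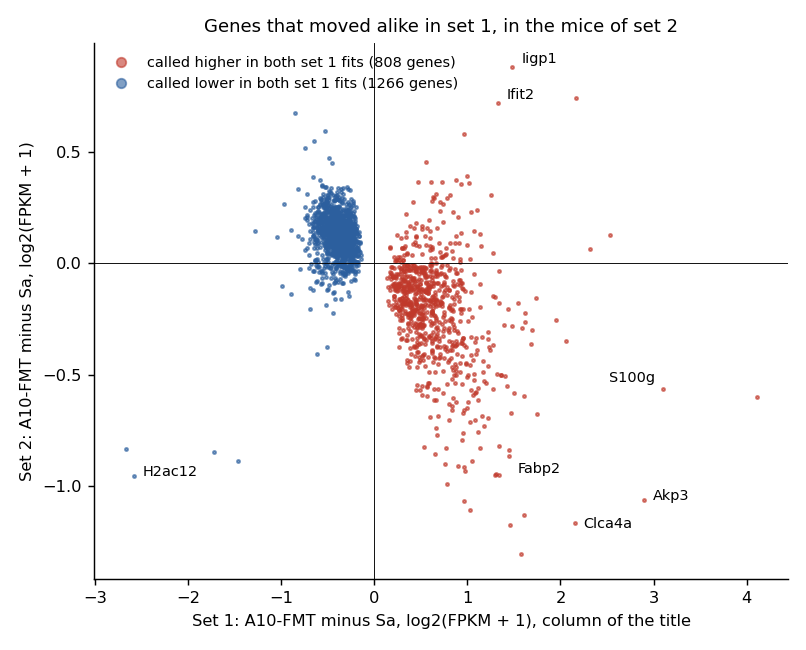
Log2 change between Sa and A10-FMT in set 1 with the title's column (x axis) against that in set 2 (y axis), for the 808 genes that rose and the 1266 that fell in set 1. The axes share no library; 104 of the genes that rose lie above the horizontal zero line, Iigp1 among them, and 119 of those that fell lie below it, H2ac12 among them.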

How the data were processed

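RNA was isolated with TRIzol and sequenced on an Illumina HiSeq 2500 by the study, and per the labels reads were placed on mm10; the aligner and counter are not given in the sources used here. The methods speak of read numbers turned into RPKM and of DEGseq, but the deposited table names its values FPKM, and these were used as deposited. It holds 19215 entries in 24 columns for 23 libraries, and the labels of Sa mouse 3 of set 1 name 2 of the columns. Whether the column that is not this mouse's holds a further Sa mouse is not stated. Of the entries, 17842 are NCBI Gene numbers, 17725 of them with a symbol. DEGseq needs read numbers and was not repeated.

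Entries averaging 1 FPKM or more were tested on log2(FPKM + 1) with limma 3.58.1 in R 4.3.3, with 1 mean per group, all 8 groups, a trended spread and Benjamini-Hochberg adjustment at 0.05, once with each column of Sa mouse 3. Groups followed the sample titles. On simulated data for the title's column (11337 genes, 200 changed, 10 simulations) the fit recovered 73.3% of 1.5-fold, 93% of 2-fold and 96.6% of 4-fold changes, and 4.56% of calls were false. The simulation drew independent errors with the spread of the fit itself and held no GC trend. It therefore checks the fit under its own assumptions and does not give the share of false calls in the data. Tables and plots were made with Python 3.11.15, numpy 2.4.6, pandas 2.3.3 and matplotlib 3.10.9, and promoters were read from RefSeq (GRCm38.p6).

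Named were the 12 genes with the largest increase and the 12 with the largest decrease, by the smaller change of both fits, among genes with a symbol that moved alike and had all A10-FMT libraries beyond every Sa value; in each response list the 3 with the largest such change and the 2 with the highest mean; and the genes of proteins measured in the study. A few of these are not reported here. Genes of printed promoters and Slfn9 were added after their values were seen. The members, lists and comparisons were chosen with earlier results of these data known. Alternatives were another pseudocount, filters, scalings, correction for GC and length, other fits, quality weights and leaving out each library.

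Read numbers were not used here, so counting error could not be given. Replicate numbers did not pair the samples: same-numbered Sa and A10-FMT libraries deviated together with r = 0.18 and -0.016 for the title's column and -0.086 and -0.029 for the description's.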

Additional observations from a re-analysis of the deposited data

Results flagged for a closer look

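The change between Sa and A10-FMT in set 1 was tested against the same change in set 2, for genes picked by the naming rule, some of which have no other value given here. That rule picked many of them by their set 1 change, which enters the difference, so calls among them were favored in advance. The genes below are those whose response differed between the sets at an adjusted p under 0.05 with both columns of Sa mouse 3, each in its own fit (limma); with the title's column 28.4% of all genes tested did, and with the description's 36.2%. Each number is, with the title's column, the set 1 change minus the set 2 change on the log2 scale, so a positive value is a response that was higher in set 1.

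Among the largest increases of set 1 the differences were S100g 3.66, Akp3 3.96, Clca4a 3.32, Slfn4 2.41, Areg 2.41, Ubd 2.25, Aldh4a1 2.43, Ido1 1.89, Krt12 2.20, Ada 1.87, Tmprss15 1.90 and Ly6m 2.14. Among the largest decreases they were H3c2 -1.16, Mfge8 -0.89, Ceacam10 -1.27, Clca3b -0.93, Coq8a -1.05, Lmcd1 -0.79, Mreg -0.75 and Frat2 -0.94. In genes of the brush border and microvillus they were Alpi 1.14, Mep1b 1.32, Anpep 1.12, Tmigd1 2.74, Espn 1.45, Cdhr2 0.93 and Vil1 0.60. Genes of calcium, amino acid, peptide, sugar and iron uptake gave Atp2b1 1.21, Slc6a19 1.96, Slc15a1 1.64, Slc6a14 1.33, Slc3a2 0.34, Slc7a9 0.78, Slc5a1 0.67, Heph 1.16 and Steap3 -0.67. Genes of fat, bile acid and vitamin A handling gave Apoc2 1.74, Fabp2 2.31, Apoa4 1.63, Apoa1 1.43, Vnn1 1.45, Hadha 0.20, Slc10a2 2.63, Slc51b 1.5, Fabp6 1.32 and Rbp2 1.15. Enzymes of sugar and of foreign compounds gave G6pc 1.1, Gsta1 1.60, Cyp4b1 1.81 and Cyp3a13 1.16.

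Interferon and immune genes differed by Ifit1bl1 2.04, Rsad2 1.64, Ifitm3 -0.78, B2m 0.49, H2-Q1 1.63, Ctss 0.59, Slfn2 0.75, Gsdmd 1.06, Nlrp9b 1.49, Card9 1.06, Pycard -0.64, Casp1 0.64, Sprr2a3 1.67 and Defa24 -1.21. In genes of dividing and stem cells and of the ribosome the values were Tk1 -0.95, Mcm3 -0.79, Aurkb -0.72, Pcna -0.36, Ube2c -0.66, Gtse1 -0.68, Smoc2 -0.81, Sox9 -0.73, Sox4 -0.68, Rpl12 -0.71, Rps27 -0.74, Rpl32 -0.85, Rpl28 -0.57 and Rplp1 -0.83. Stress, adhesion and respiratory genes gave Fas 0.90, Pmaip1 1.02, Atf3 1.23, Trib3 0.76, Cdh17 0.61 and Ndufa10 -0.28. The library code, the schedule and the mice of a set cannot be told apart.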

How the results depend on the processing

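Under the alternatives run, genes that rose or fell numbered 1809 to 2304 with another pseudocount, filter, scaling or GC correction, against 2074. Other fits changed more. Fitting set 1 alone gave 948 (999 with the title's column), 139 list members against 209, 433 genes against Con-FMT and 0 against A100-FMT (1674 at an unadjusted p under 0.05). Fitting the compared groups alone gave 1 gene (title's column 1, description's column 1176), 0 list members (212 unadjusted), 1 gene against A100-FMT, 154 in set 2 and 1472 that differed between the sets. Array quality weights, which give each library its own weight, gave 0 genes alike (705 unadjusted) and 0 with the title's column (939). They gave 0 list members (110) and 0 between the sets (1843), but 3164 against Con-FMT, 1978 against A100-FMT and 1771 in set 2. The description's column gave 3725 against Con-FMT, 2292 against A100-FMT and 352 in set 2. Taking out GC and length trends gave 1349 against A100-FMT and 193 in set 2, quantile normalization gave 354 against A100-FMT, and dropping the filter left 2 in set 2. Trimmed-mean scaling turned the split between the sets to 1631 higher and 1374 lower, against 1199 and 2017, and quantile normalization turned that against A100-FMT to 184 higher and 170 lower. The causes were not tested.

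Leaving out 1 library at a time gave 922 to 6898 genes with the title's column, 922 to 3872 with the description's, 922 to 2096 alike, 104 to 210 list members, 951 to 3728 against Con-FMT, 27 to 2342 against A100-FMT, 1 to 390 in set 2 and 2313 to 6616 between the sets. The extremes came from Sa mice 1 and 3 of set 1, Con-FMT mouse 1 and A100-FMT mouse 3 of set 1, A10-FMT and Sa mice 2 of set 2 and Con-FMT mouse 1 of set 2. Of 96 called genes named here, 50 were still called without Sa mouse 3, 96 after trimmed-mean scaling, 87 after GC correction, 77 in the fit on set 1, and 0 with array quality weights or in the fit on the compared groups alone; none changed direction.

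With the replicate number as a block, 2101 genes moved alike (840 rose and 1261 fell) and 22 were called in set 2, against 48. The numbers did not pair the samples, with 2 shared numbers between the groups.

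Genes whose direction turned were all outside the calls. With the description's column Slfn9 changed by -0.43, Tjp1 by -0.36 and Ocln by -0.12; after GC correction Reg3g by -0.097, Tjp1 by -0.097 and Ocln by -0.14; under quantile normalization Tjp1 by -7e-04; with the block Reg3g by -0.023. Leaving out 1 library at a time, Slfn9 ranged from -0.41 to 1.04, Tjp1 from -0.31 to 0.38, Ocln from -0.11 to 0.35 and Olfm4 from -0.60 to 0.14, each lowest without Sa mouse 3 and highest without Sa mouse 1; without A10-FMT mouse 1 Tjp1 changed by -0.057.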

Other observations

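Paneth cell genes, which did not move against Sa in set 1, stood apart in other pairs of groups. Of genes tested 1.71% were higher in A10-FMT than in A100-FMT of set 1, and 0 with the 4 groups of set 1 fitted alone. Among the Paneth cell genes 10 of 20 were higher, with a median difference of 0.73 on the log2 scale. Their summed level was 28720, 36984 and 23401 FPKM in the A10-FMT mice of set 1 and 20636, 16815 and 14662 in the A100-FMT mice, against 37873 in Sa mouse 1 and 34578 or 37101 in Sa mouse 3. In set 2 the sum was 34187, 32590 and 22873 FPKM in the A10-FMT mice and 19467, 16578 and 12705 in the Sa mice. All 20 members had a positive change there, with a median of 0.88, where 59.1% of all genes had one. Of the 20, 4 were called higher, against 0.0882% of all genes. Copies that share sequence are among them, so these counts are not of independent genes. Defa24, 1 of the defensin genes, whose sequences are near-identical, read 3354 ± 661 FPKM with saline and 6059 ± 1035 with A10-FMT in set 2 (mean ± SD of 3 mice a group).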
